A study of Homo sapiens with 8 samples.

Results

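Of 67328 genomic regions with a peak in at least 1 of 4 ChIP-seq peak lists, 3520 (5.23%) held a peak of the list from OPM-2 cells treated with both compounds and none of the other 3 lists. The regions were made by merging peaks on chromosomes 1 to 22 and X that shared at least 1 bp. The 3520 regions were those with a peak after ATRA+POM and none after POM, ATRA or DMSO. Each of them held exactly 1 ATRA+POM peak, and they made up 7.46% of the 47193 peaks in that list. The members were chosen by the peak calls themselves, so their number is a description and carries no test.

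OPM-2 is an established human multiple myeloma cell line, and the series asked about activating the retinoic acid receptor RARB against resistance to immunomodulatory drugs. Cells received 1 µM ATRA with 1 µM POM, 1 µM POM, 1 µM ATRA or the solvent DMSO for 72 h. Each treatment gave 1 ChIP library and 1 input library of the same line. With a single ChIP library per treatment no spread between replicates exists, no test of a treatment was made, and every interval below covers counting error only.

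ATRA (all-trans retinoic acid) is the ligand of the retinoic acid receptors, which bind DNA as heterodimers with retinoid X receptors and exchange corepressors for coactivators when the ligand binds. Cells respond by making enzymes that clear retinoic acid, of which the CYP26 hydroxylases are the best known. POM (pomalidomide) binds cereblon, the substrate receptor of a ubiquitin ligase, and directs it to degrade the lymphoid transcription factors IKZF1 and IKZF3. The series' design text speaks of transcription factor binding, but the antibody is not given in the sources used here, so a peak is described below only as a place of enrichment.

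The 3 promoters below are shown because an ATRA+POM-only peak reached into the 250 bases before the start of the gene. CD1D was among the strongest members, and the other 2 were chosen after their values were seen, for what they encode. CD1D presents lipid antigens to natural killer T cells, NR1H3 encodes the oxysterol receptor LXR alpha, a heterodimer partner of retinoid X receptors, and ADH1C encodes an alcohol dehydrogenase that can oxidise retinol. The sequences are RefSeq's on GRCh38.p14, written 5′ to 3′ on the gene's own strand, and capitals mark the bases inside an ATRA+POM-only peak.
CD1D, chr1:158179697-158179946, plus strand: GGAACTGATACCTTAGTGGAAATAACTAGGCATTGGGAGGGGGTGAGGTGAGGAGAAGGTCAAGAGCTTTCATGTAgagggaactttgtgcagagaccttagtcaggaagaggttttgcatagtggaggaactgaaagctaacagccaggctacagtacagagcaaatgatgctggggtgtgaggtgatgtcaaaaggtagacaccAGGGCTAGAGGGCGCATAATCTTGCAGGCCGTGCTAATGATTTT
NR1H3, chr11:47257457-47257706, plus strand: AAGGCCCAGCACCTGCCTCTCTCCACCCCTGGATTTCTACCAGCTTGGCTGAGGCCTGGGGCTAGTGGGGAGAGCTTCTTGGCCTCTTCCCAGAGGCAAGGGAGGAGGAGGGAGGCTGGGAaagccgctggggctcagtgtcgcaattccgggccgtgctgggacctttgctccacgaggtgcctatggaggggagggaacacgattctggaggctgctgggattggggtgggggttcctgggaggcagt
ADH1C, chr4:99352747-99352996, minus strand: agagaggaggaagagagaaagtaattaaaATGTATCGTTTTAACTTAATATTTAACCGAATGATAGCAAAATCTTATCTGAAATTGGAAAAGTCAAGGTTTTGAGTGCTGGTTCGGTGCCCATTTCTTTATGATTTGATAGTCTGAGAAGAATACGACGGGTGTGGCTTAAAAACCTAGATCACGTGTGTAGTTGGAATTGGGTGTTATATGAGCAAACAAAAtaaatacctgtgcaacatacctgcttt
In CD1D the capitals are 120 bases from 2 peaks, one with 406 reads at its summit that ended upstream of the start and one with 53 reads that covered the start. In NR1H3 they are 121 bases of a peak with 22 reads, and in ADH1C 194 bases of a peak with 53 reads.

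Such overlaps were few. Only 34 of the 3520 members touched any of the 34961 promoter windows of 300 bases (250 before to 50 after a start) in the RefSeq table, which covers 15812 of the 19974 protein-coding genes. The 38 windows they touched belong to 35 genes, of which 15 code for protein. Among these were CHRNA1, a subunit of the muscle acetylcholine receptor (70 reads), CPNE5, a calcium-dependent membrane-binding copine (64 reads), PDE1A, a cyclic nucleotide phosphodiesterase (43 reads), and HMX3, a homeobox factor (27 reads). The GC content of the 38 windows had a median of 46.8% (quartiles 41.8 to 55.3%), against 63.0% (56.3 to 68.7%) for the 8122 windows touched by any ATRA+POM peak and 58.7% (47.0 to 68.0%) for all windows. A search for retinoid response elements, as the hexamers AGGTCA or NGTTCA in direct repeat with 1, 2 or 5 spacer bases on both strands, found 0 in the 38 windows, which allows a share of up to 9.18% (95% Wilson). The same letters stood in 83 of the 34961 windows (0.237%), so this number of windows can say nothing about them.

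Most members were weak peaks. Reads at the summit were recovered from the fold enrichment and −log10 p of each peak. They had a median of 35 (quartiles 25 and 52, highest 2243), against 65 over all ATRA+POM peaks. The fold enrichment, which the authors give per peak as the summit over the background of that library, had a median of 5.46 in members and 7.99 over all ATRA+POM peaks. The members' median width was 220.5 bp, against 391 bp over the whole list. Of ATRA+POM peaks with under 25 summit reads 20.3% (95% Wilson interval 19.2 to 21.6) were members. The share was 12.3% from 25 to under 50 reads, 5.80% from 50 to under 100, 1.81% from 100 to under 200 and 0.711% (0.545 to 0.927) at 200 or more. Strength enters the calls that chose the members, so this order is a description. Regions called with POM alone (9599) and with DMSO alone (10968) likewise had medians of 35 and 37 summit reads, and only 89 regions were called with ATRA alone.

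A smaller set of members was strong. A fold enrichment of at least 10 was reached by 266 members (7.56%) and at least 100 summit reads by 207 (5.88%). The width was at least 1000 bp in 36 members and at least 2000 bp in 6. The ATRA+POM library had 0.902 times and the POM library 0.927 times the depth of the DMSO library, as inferred from the lowest background values. At the depths of the POM and DMSO libraries, the same enrichment would have cleared the lowest −log10 p of those lists for 3517 and 3520 of the 3520 members. That was nearly fixed in advance, as those depths were 1.03 and 1.11 times that of ATRA+POM. Their lowest −log10 p (5.02 and 5.03) were also below that of the ATRA+POM list (5.05). It therefore says nothing about why the members were not called there. The library labelled ATRA had only 0.133 times the depth of DMSO, and 740 members (21%) would have cleared its lowest value. For the other members a like enrichment was not detectable at that depth. The ATRA list hardly entered the choice, since 3522 regions were ATRA+POM-only when it was left out.

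**Figure D1:**
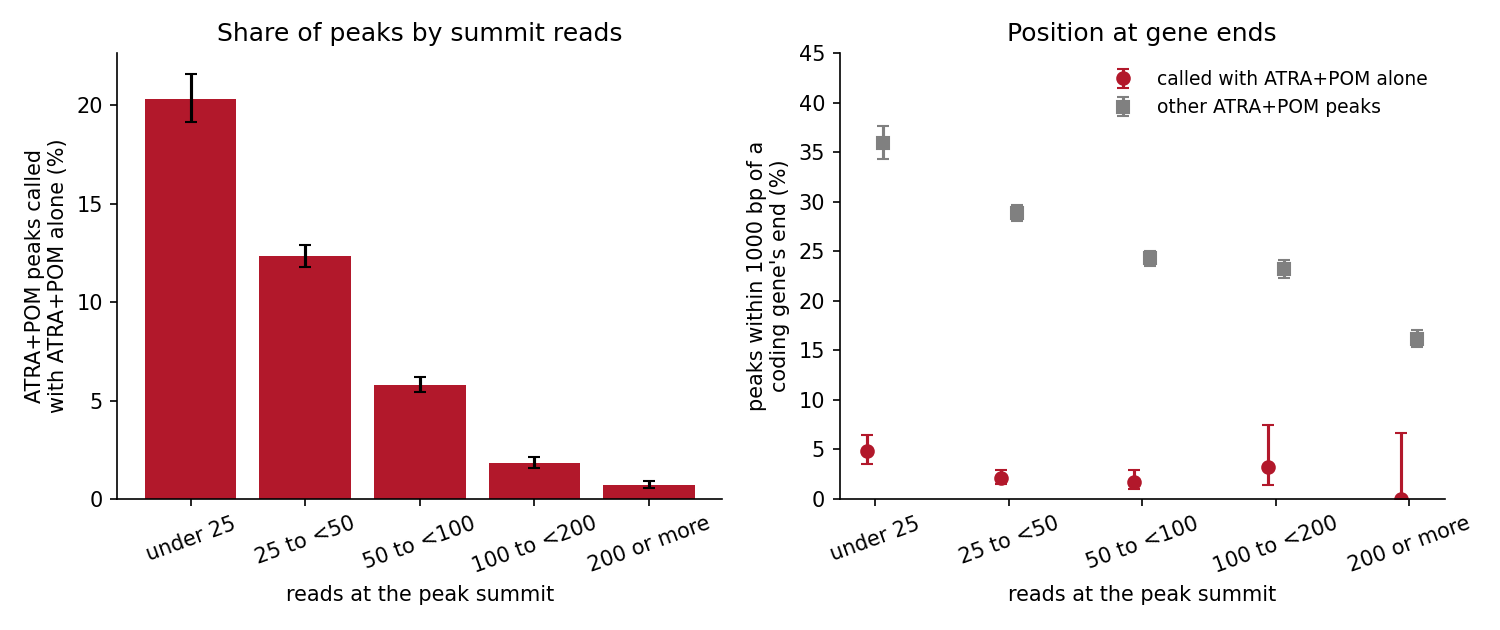
Left, share of ATRA+POM peaks called in no other list (y axis, %) in 5 ranges of summit reads (x axis). Right, share of peaks at a gene end (within 1000 bp, y axis, %) for members (red circles) and the other ATRA+POM peaks (grey squares) in the same ranges. Bars are 95% Wilson intervals. The left share falls to 0.711% at 200 reads or more, and in each range the members lie below the other peaks on the right.

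The members lay away from gene ends. Only 95 members had their midpoint within 1000 bp of a protein-coding gene's start or end, here called a gene end. That is 2.70% (95% Wilson interval 2.21 to 3.29). The share was 6.59% (6.12 to 7.11) for regions called with POM alone, 14.9% (14.2 to 15.6) with DMSO alone and 33.7% (33.0 to 34.4) in all 4 lists. Regions called with ATRA+POM and POM, and with neither of the other treatments, had 2.80% (2.43 to 3.23), an interval that overlaps that of the members. The share was also below that of the other ATRA+POM peaks in each range of summit reads. With under 25 summit reads 4.80% (3.56 to 6.45) of members and 35.9% (34.3 to 37.6) of the other ATRA+POM peaks were at a gene end, and with 200 or more reads 0 of 54 members (up to 6.64%) and 16.2% (15.4 to 17.0) of the others. The 54 include 11 members at chr16:46388543-46401734 with 208 or more reads but fold enrichments of at most 2.83. Like reads are therefore not like enrichment in that range. More than 50 kb from any such end lay 54.0% of members (52.4 to 55.6), against 50.7% (49.5 to 51.9) of ATRA+POM and POM regions, 42.2% of POM-only, 39.6% of DMSO-only and 24.4% of regions in all 4 lists. Inside a protein-coding gene lay 44.0% of members (42.4 to 45.7), against 45.2% (44.0 to 46.4) of ATRA+POM and POM regions, 49.6% of POM-only, 56.9% of DMSO-only and 65.8% of regions in all 4 lists.

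Members also lay farther from the peaks of the other lists. The nearest peak of another list was a median of 10.2 kb away, against 3.78 kb for POM-only and 3.79 kb for DMSO-only regions. Within 1000 bp of such a peak lay 866 members (24.6%, 23.2 to 26.1), against 37.4% (36.4 to 38.3) of POM-only and 40.2% (39.3 to 41.1) of DMSO-only regions. Of the 866, 775 had a POM peak that near, 132 an ATRA peak and 414 a DMSO peak, and for 450 it was a POM peak alone. A further 747 members (21.2%) had no peak of another list within 50 kb. At the edge of the rule, 8 members lay within 10 bp of a peak of another list, with 12 to 41 summit reads (median 26). On the other side, 4 ATRA+POM peaks that were not members shared 1 to 10 bp with one, with 19 to 24 reads (median 21).

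**Figure D2:**
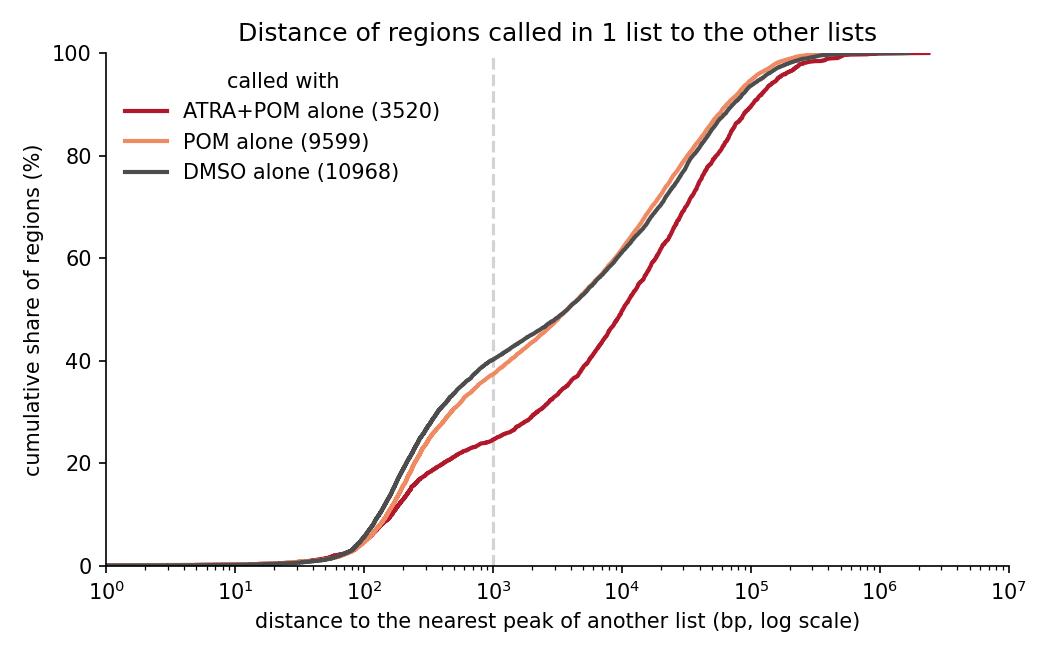
Cumulative share of regions (y axis, %) by distance to the nearest peak of another list (x axis, bp, log scale) for regions called with ATRA+POM alone, POM alone and DMSO alone, with 1000 bp dashed. At 1000 bp the curves stand at 24.6% for ATRA+POM, 37.4% for POM and 40.2% for DMSO.

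The strongest member lay 14.7 kb from the nearer end of CD1D, at chr1:158161946-158164716, inside an uncharacterised long noncoding RNA gene. Its summit had 2243 reads over a background of 25.6, a fold enrichment of 84.3. Scaled to the depth of the ATRA library this would be 330 reads. The nearest POM and DMSO peaks were each 11.8 kb away and the nearest ATRA peak 312 kb away. Inside the annotated extent of CD1D, from chr1:158178030, lay the members of 406 reads (chr1:158178525-158179772, fold enrichment 15.4) and 53 reads (chr1:158179903-158180230). The first of these ended upstream of the gene start used for the promoter sequence above. Another member of 108 reads stood 0.374 kb from SMIM42, beside a POM peak 0.256 kb away. The CD1D locus, taken as the gene with 5000 bp on each side, held 2 peaks with ATRA+POM and 0 in each of the POM, ATRA and DMSO lists. Within 200 kb of the gene there were 8 peaks with ATRA+POM, 5 with POM, 0 with ATRA and 4 with DMSO. The highest summit there had 2243 reads in the ATRA+POM list, 179 in the POM list and 161 in the DMSO list. CD1D was the only gene with a member in the list of 31 CD1 and antigen presentation genes (3.23%), against 6.41% of all protein-coding genes.

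Near NRIP1, which encodes a nuclear receptor corepressor that binds liganded retinoid receptors, 9 members lay within 25.6 kb (chr21:14864551-14890138). The middle of the group was 83.9 kb from the nearer end of NRIP1, and the strongest member stood in the long noncoding RNA gene ASMER1. Their summits had 54, 70, 35, 37, 31, 461, 46, 159 and 57 reads, and no peak of the POM, ATRA or DMSO list lay among them. The strongest reached a fold enrichment of 38.0, and its nearest POM, ATRA and DMSO peaks were 113, 113 and 112 kb away. Inside NRIP1 was 1 more member with 44 reads, while the locus as a whole held 7, 5, 3 and 4 peaks with ATRA+POM, POM, ATRA and DMSO.

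**Figure D3:**
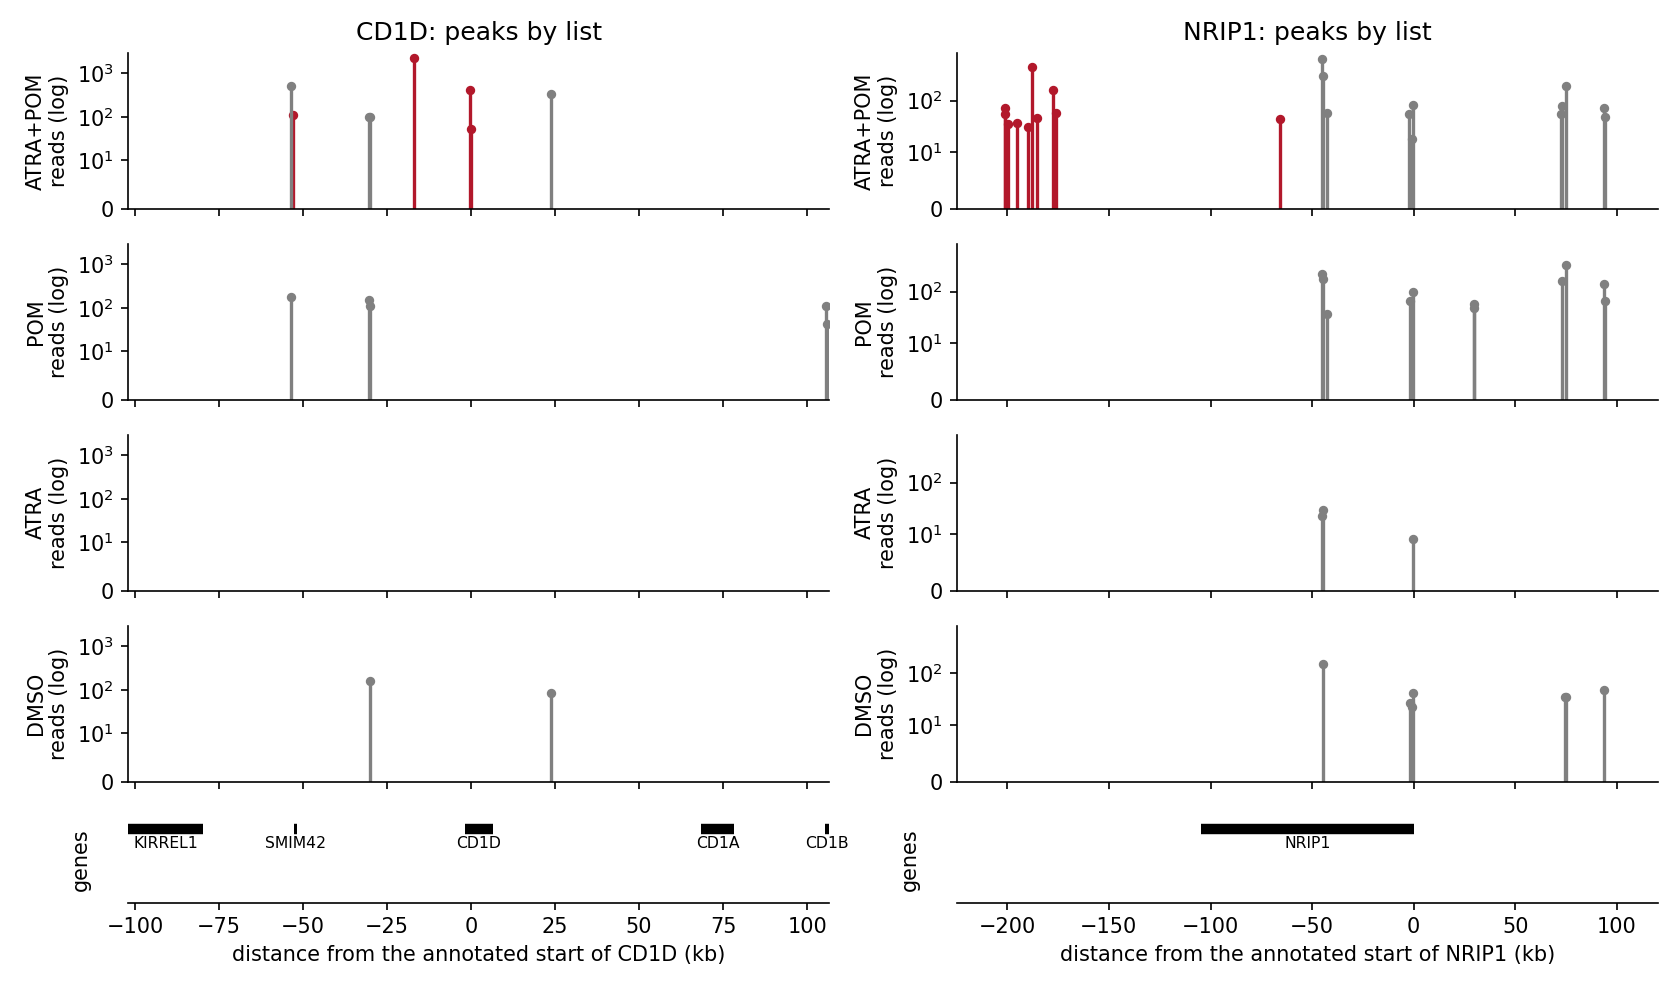
Peaks around CD1D (left) and NRIP1 (right), with a row for each of the lists ATRA+POM, POM, ATRA and DMSO and a row of protein-coding genes. The x axis is the distance from the annotated start in kb and the y axis the summit reads, on a log scale that is linear below 10. Red marks ATRA+POM-only peaks and grey all others. By the rule that chose them, the member of 2243 reads beside CD1D and the 9 members beyond NRIP1 have no overlapping peak in the lower rows.

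EXOC6B, which encodes a subunit of the exocyst, the complex that tethers secretory vesicles, held 14 members, more than any other gene. The ATRA+POM list had 15 peaks at its locus (gene at chr2:72175984-72826033), while the POM and ATRA lists had 0 and the DMSO list 3. The members had 20 to 569 summit reads with a median of 56.5. The strongest, at chr2:72202691-72206087, was 28.4 kb inside the gene and had 569 reads over a background of 7.81, a fold enrichment of 64.7. Its nearest POM peak was 239 kb and its nearest DMSO peak 236 kb away. A second group of 5 members stood within 3.46 kb (chr2:72269586-72273042), with 31, 49, 96, 61 and 23 reads, and a member of 224 reads lay at chr2:72548231-72548837. The neighbouring gene CYP26B1, a retinoic acid hydroxylase, had 2 members at its locus, with 42 and 23 reads, at chr2:72150610-72150938 and chr2:72151548-72151842. Its locus held 2 peaks with ATRA+POM and 0 in each of the other lists.

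The largest group of members that were at most 20 kb apart lay around NXT1, a cofactor of messenger RNA export, and the zinc finger gene GZF1. It held 33 members over 85.4 kb (chr20:23283466-23368861), while the largest groups of POM-only and of DMSO-only peaks held 14 each. The members had 12 to 183 summit reads with a median of 25, and the strongest was 9.13 kb from NXT1. Over that stretch the ATRA+POM list had 41 peaks in all, the POM list 8 and the ATRA and DMSO lists 9 each. Most members stood on the side of lower coordinates from the shared peaks of this stretch. Others, the strongest included, stood between those peaks, and a few on the far side. Another 11 members (17 to 65 reads) stood nearby at chr20:23242298-23259577, where no other list had a peak.

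**Figure D4:**
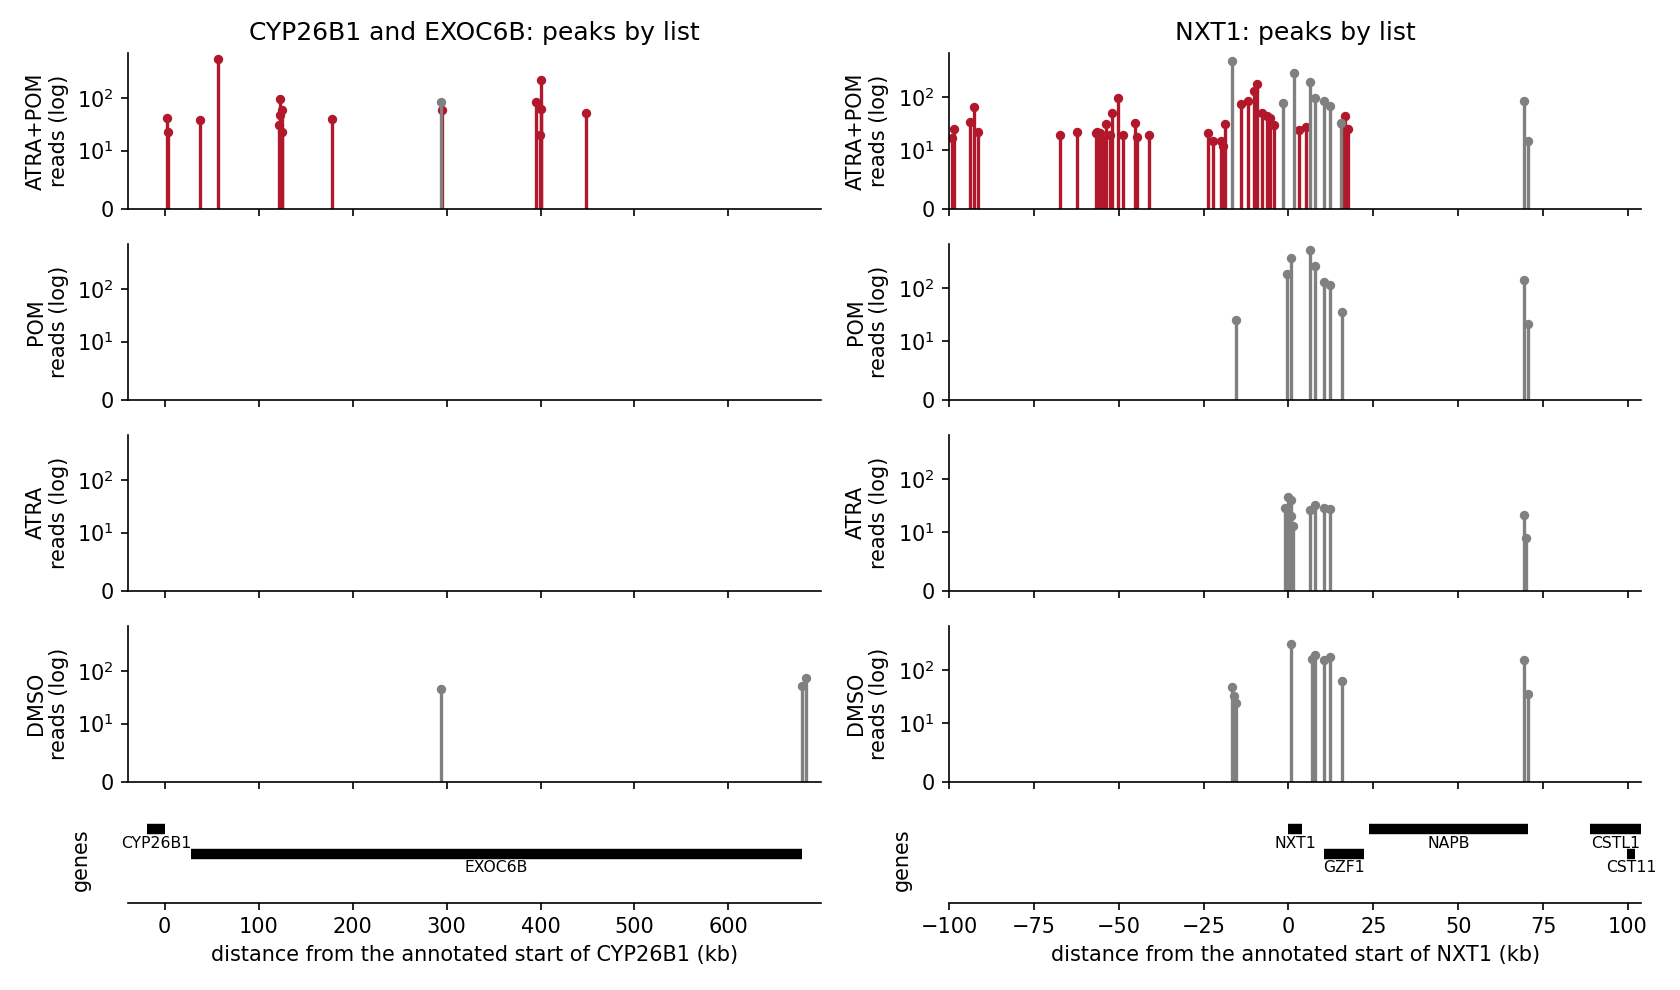
Peaks around CYP26B1 and EXOC6B (left) and NXT1 (right), drawn as in the plot for CD1D and NRIP1. On the left the ATRA+POM row has 16 red peaks, 14 at EXOC6B and 2 at CYP26B1, where POM and ATRA have 0 peaks and DMSO has 3. Around NXT1 most red peaks lie left of the grey peaks and the others among them.

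Over all members, 2129 (60.5%) had no other member within 20 kb, against 48.7% of POM-only and 54.8% of DMSO-only peaks. Groups of at least 5 numbered 26 and held 203 members (5.77%), against 6.37% of POM-only and 2.44% of DMSO-only peaks. The sets differ in size, with 3520 members against 9599 POM-only and 10968 DMSO-only peaks. A smaller set leaves fewer neighbours within 20 kb, so these shares are not like for like. In 11 of the 26 groups, with 81 members, no other list had a peak, and 15 of the 26 touched no protein-coding gene. Of these 81 members 22 belong to the 2 groups of high background on chromosome 16 described below. The next largest group after that around NXT1 held 14 members with 15 to 90 reads at chr19:27734124-27767569. It touched no protein-coding gene, and the POM list had 1 peak and the DMSO list 3 there. Beside TRHDE, which encodes a peptidase that degrades thyrotropin-releasing hormone, 5 members spanned 18.1 kb and reached 589 reads. The strongest of them had its nearest POM, ATRA and DMSO peaks each 478 kb away. Inside ADAMTS13, the protease that cleaves von Willebrand factor, 7 members had only 15 to 21 reads. A group of 6 members with 29 to 113 reads lay 46.7 kb from the homeobox gene HLX. The 2 largest groups on chromosome 16 were of another kind. At chr16:34573034-34595253 and chr16:46388543-46401734, 11 members each had many reads over a background of 57.6 to 578 reads, with fold enrichments of only 1.47 to 3.58. They were 22 of the 32 members with a background over 30 reads.

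The 20 members of highest −log10 q had 183 to 2243 summit reads, and all 20 would have cleared the lowest value of the ATRA list at its depth. Of these, 7 lay inside a protein-coding gene, 8 inside a noncoding gene alone and 5 in no annotated gene. For 7 the nearest peak of another list was over 50 kb away, and for 1 (177 kb from NR4A2, an orphan nuclear receptor, 359 reads) it was within 1000 bp. Besides those above they included CAMK1D, a calmodulin-dependent kinase (520 reads inside the gene), TANC2, a synaptic scaffold (291 reads), NKAIN2 (282 reads), ABCA13 (271 reads) and GFRA1, a co-receptor of GDNF (197 reads). Others were far from any coding gene, such as those of 386 and 344 reads that stood side by side 122 kb from CDC42EP3, of 381 reads 515 kb from PDHA2 and of 239 reads 553 kb from MAP3K7. Further ones lay 52.5 kb from LOC107983958 (251 reads), 131 kb from EEA1 (300 reads) and 154 kb from MMS22L (289 reads).

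By summit reads, the 95 members at gene ends split into 41 under 25, 36 from 25 to under 50, 13 from 50 to under 100, 5 from 100 to under 200 and 0 higher. The same ranges held 854, 1694, 765, 153 and 54 of all members. The CD1D member of 406 reads is not one of the 95, as its midpoint lay 1.12 kb from the gene end. The top of so small a set cannot be compared with the 20 strongest of all members. The 10 of highest −log10 q among the 95 had 51 to 144 summit reads. They lay at ABTB1 (112 reads), PRXL2A (123), SLIT2 (144), ARL14EPL (107), MMUT (87), ALAS2 (51), SMIM42 (108), ASB14 (68), CENPO (63) and IL26 (93). SLIT2 is a guidance ligand of ROBO receptors, ALAS2 starts heme synthesis in red cell precursors, and IL26 is a T cell cytokine. At MMUT, SMIM42 and IL26 a POM peak stood 0.159, 0.256 and 0.215 kb away. At the other 7 the nearest peak of another list was 3.21 kb (CENPO) to 63.0 kb (ASB14) away.

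A member lay at the locus of 1280 of the 19974 protein-coding genes (6.41%). The share was 17% for POM-only and 24.4% for DMSO-only regions. These shares come from 3520, 9599 and 10968 regions, and a larger set can reach more genes. Of the members 1685 (47.9%) lay at such a locus. The share of genes with a member differed with gene length, and was 1.41% under 10 kb, 3.39% at 10 to 30 kb, 6.34% at 30 to 100 kb, 15.8% at 100 to 300 kb and 33.6% from 300 kb. After EXOC6B the most members lay at ABCA13, a lipid transporter (8 members, 20 to 271 reads), CPEB3, a translational regulator (8, 21 to 32), SYT2, a calcium sensor of vesicle release (7, 16 to 63), ROBO2, a SLIT receptor (7, 27 to 56) and ADAMTS13 (7, 15 to 21). They were followed by LRRC4C and ANKS1B with 6 each and PRRC2C and KLHL1 with 5 each. All 8 members at CPEB3 lay within 1000 bp of a peak of another list, but only 1 of the 14 at EXOC6B and 0 of the 7 at ADAMTS13 did.

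At 135 genes (0.676% of all) the locus had peaks in the ATRA+POM list and in no other. There were 359 such genes for POM (1.80%), 3 for ATRA and 476 for DMSO (2.38%). TRHDE (589 reads) and CD1D (406 reads) had the highest summits among the 135. They also included MS4A12 (179 reads), ADCY4, an adenylate cyclase (132 reads), CBLIF and TCN1, neighbouring genes for vitamin B12 carriers that shared a peak of 128 reads, HLX (96 reads), CCR9, ADH1C and CYP26B1. TACR3, the neurokinin B receptor, had the most peaks (4, up to 34 reads). The genes of this paragraph other than TRHDE, CD1D, CCR9 and CYP26B1 were chosen after their values were seen.

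Of the 76 genes on 5 lists of retinoid biology, 19 (25%) had a member at the locus, against 6.41% of all protein-coding genes. The same 76 genes gave 19 (25%) with a POM-only and 20 (26.3%) with a DMSO-only region, against 17% and 24.4% of all genes. By gene length 2 of 20, 5 of 18, 3 of 18, 6 of 15 and 3 of 5 retinoid genes had a member, in the same ranges as above. The 24 distinct members at these loci were weak, with 14 to 102 summit reads and a median of 32, and 9 of them lay within 1000 bp of a peak of another list. Without members that near another list, 11 retinoid genes (14.5%) and 4.68% of all genes had one.

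Among the clearing enzymes 2 of 9 had a member, CYP26B1 and the retinal reductase DHRS3 (17 reads, 0.192 kb from a POM peak). A POM-only region lay at 0 and a DMSO-only region at 3 of the 9. Over all protein-coding genes the shares were 6.41% for members, 17% for POM-only and 24.4% for DMSO-only regions. Counts in retinoid lists this small are values only and set no list apart. The locus of CYP26A1, the hydroxylase that retinoic acid induces most widely, held no member, since its ATRA+POM peak of 396 reads overlapped smaller peaks of the POM list (44 and 52 reads) and the DMSO list (45 reads). Within 200 kb of CYP26A1 there were 4 members with 40, 48, 199 and 21 reads, all on 1 side between chr10:93116221 and chr10:93151771. Of the 6 receptors 3 had a member, 3 a POM-only and 3 a DMSO-only region. RARB had 4 members inside the gene, with 52, 19, 17 and 38 reads, among 22 ATRA+POM peaks at its locus, against 23 with POM, 13 with ATRA and 18 with DMSO. The member of 52 reads stood 0.065 kb from a POM peak. RARG had a member of 19 reads, 0.082 kb from a POM peak, which also fell within the flank of ITGB7, the integrin beta chain of gut homing. RXRG had 1 of 91 reads over a background of 28.7, a fold enrichment of 3.10.

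Of 29 retinoid target genes 8 had a member, 9 a POM-only and 4 a DMSO-only region. The shares over all protein-coding genes were 6.41%, 17% and 24.4%, and the counts of this paragraph too are values only. CCR9, the gut-homing chemokine receptor that retinoic acid induces in T cells, had 2 (64 and 29 reads, the first with a fold enrichment of 11.2), and its locus held no peak of another list. PLAAT4, a phospholipase first found as a retinoid-induced gene, had 2 (50 and 37 reads). The homeobox genes MEIS1 and MEIS2 had 1 each (102 and 28 reads), as had the transglutaminase TGM2 (40 reads) and NAV2 (16 reads). These loci, unlike that of CCR9, also held peaks of other lists. NAV2 had 8, 17, 9 and 13 peaks with ATRA+POM, POM, ATRA and DMSO, and MEIS1 12, 11, 5 and 8. In the same order MEIS2 had 7, 7, 6 and 3, PLAAT4 4, 2, 0 and 5, and TGM2 2, 1, 0 and 0. Of 18 coregulators 5 had a member, namely NRIP1 (44 reads), the coactivators NCOA3 (35) and CREBBP (19), the methyltransferase KMT2C (77) and the corepressor subunit TBL1X (14). A POM-only region lay at 6 and a DMSO-only region at 9 of the 18.

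In each of the other lists 0 to 3 genes had a member, where the share over all protein-coding genes was 6.41%. Counts this small, in lists of 13 to 42 genes, are values only and set no list apart. Among plasma cell transcription factors 3 of 23 had a member. MAF, an oncogene of other myeloma translocations, had 2 of 91 and 103 reads, EBF1, a B cell factor, 3 of 13, 54 and 36 reads, and IKZF3 1 of 32 reads, 0.067 kb from a POM peak. CSNK1A1, a casein kinase and target of lenalidomide, had 1 of 27 reads and was with IKZF3 among 2 of 13 genes of the cereblon ligase and its substrates. Of 42 interferon-stimulated genes 3 had one, among them IRF1 (14 and 28 reads) and RSAD2 (44 reads, the only peak of any list at its locus). Of 21 BCL2 family genes BCL2 (34 reads) and BMF (16 reads) had one, and of 36 cell cycle genes E2F2 (36), CDK1 (45) and BUB1 (33). BMP7 and SMAD6 had one among 30 genes of transforming growth factor beta and BMP signalling, IKBKB among 23 of the NF-kB pathway and NCAM1 among 20 plasma cell surface markers. There was none among 17 ligands of natural killer cells or 18 myeloid and T cell markers. No member lay at any of 17 marker loci checked against the labelled cell type. The plasma cell genes SDC1, TNFRSF17, CD38, IRF4, PRDM1 and XBP1 had peaks in all 4 lists. Of markers of other cell types, MS4A1, CD3D, CD8A, CD14 and MPO had a peak in none. The myeloid receptor gene CSF1R had 2 peaks with ATRA+POM, 6 with POM and 0 with ATRA or DMSO. CD3E, CD4 and LYZ had 1 peak each in the POM list alone, and the B cell factor gene PAX5 had 1 in the DMSO list alone.

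**Figure D5:**
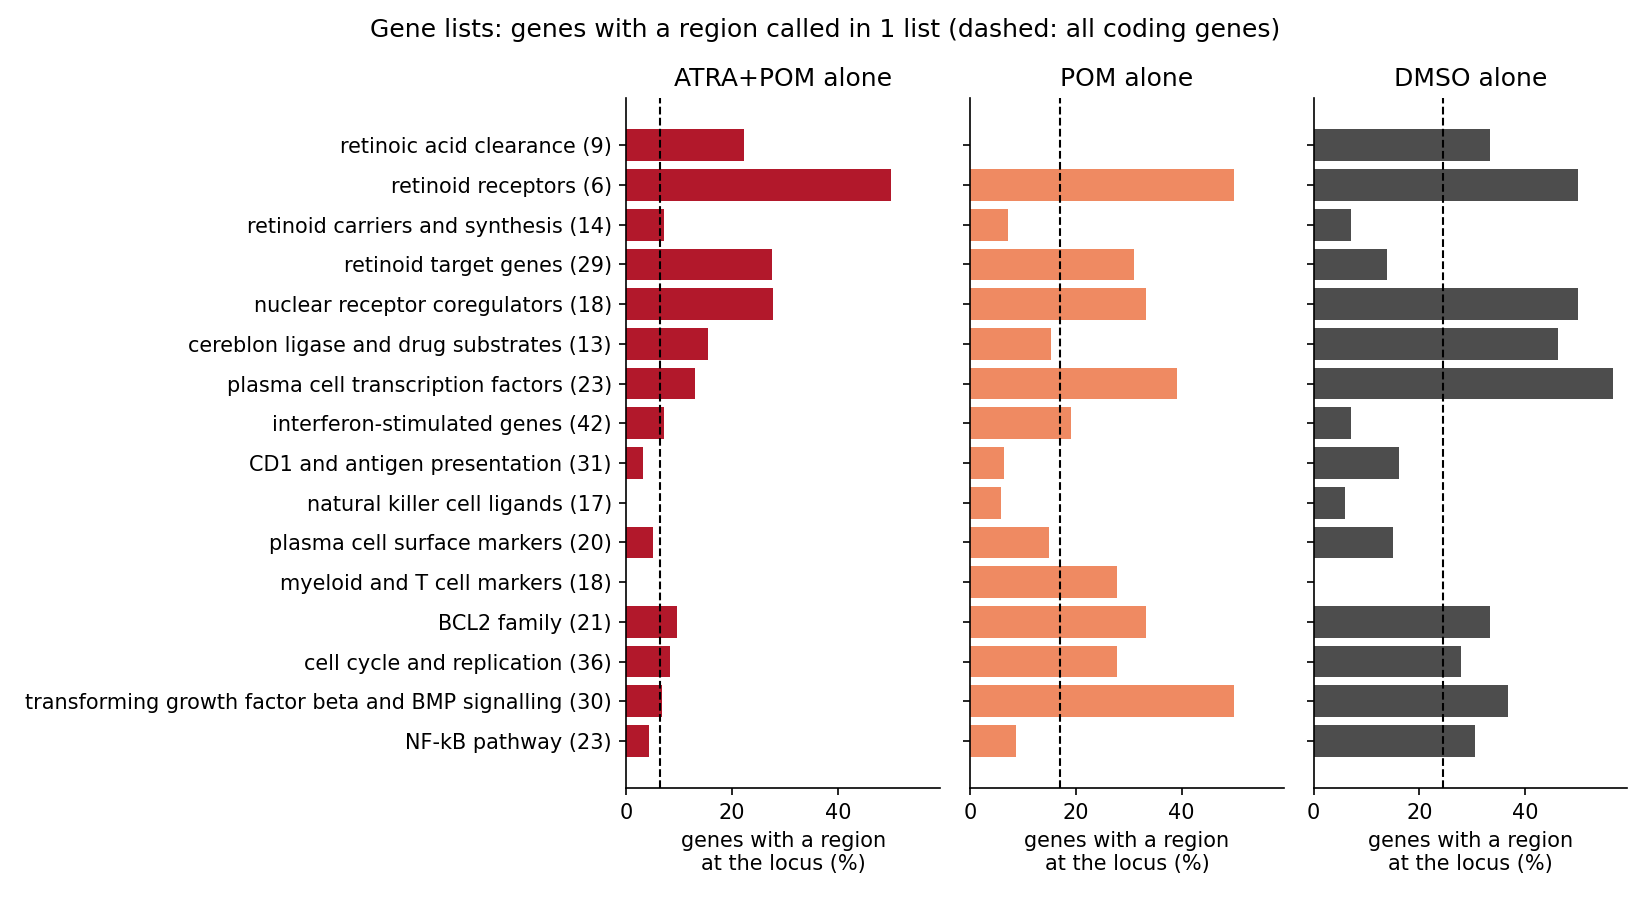
Share of genes with a region at the locus (x axis, %) in 16 gene lists (rows, number of genes in brackets) for regions called with ATRA+POM alone (left), POM alone (middle) and DMSO alone (right). Dashed lines are the shares over all 19974 protein-coding genes, 6.41%, 17% and 24.4%. On the left 11 bars stand above the line, those of the retinoid receptors (3 of 6 genes), coregulators (27.8%), target genes (27.6%), clearance genes (22.2%), cereblon ligase (15.4%), plasma cell transcription factors (13.0%), BCL2 family (9.52%), cell cycle (8.33%), interferon-stimulated genes (7.14%), retinoid carriers (7.14%) and transforming growth factor beta (6.67%). Of the retinoid lists, receptors (50%), coregulators (33.3%) and target genes (31.0%) also stand above the line in the middle, with carriers (7.14%) and clearance genes (0%) below. On the right receptors (50%), coregulators (50%) and clearance genes (33.3%) stand above it, with target genes (13.8%) and carriers (7.14%) below. On the left the bars of cell cycle, interferon-stimulated, retinoid carrier and transforming growth factor beta genes lie near the line. They rest on 1 to 3 genes each. The lists differ in gene length.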

How the data were processed

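The data are 4 ChIP-seq peak lists of 10 columns from OPM-2 cells, 1 per treatment, each with a matching input library. Build hg38 comes from the submitters' processing notes. The sources used here do not give the aligner or the caller. The deposited values are a score, a fold enrichment (a ratio of summit to local background), −log10 p and −log10 q per peak and library. Peaks were called per library, and depth was not stated.

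Peaks of chromosomes 1 to 22 and X sharing at least 1 bp were merged. Summit reads k and background b were recovered from fold = (k + 1)/(b + 1) and a Poisson p, which is an inference from the values. They were whole within 0.02 for 100%, 100.0%, 99.8% and 100% of ATRA+POM, POM, ATRA and DMSO peaks. Relative depth is the lowest background value seen 20 or more times over the width of the narrowest peak. Gene ends and loci come from RefSeq on GRCh38.p14 (gene body with 5000 bp on each side), and distances to genes run from a region's midpoint.

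The members and the 16 gene lists were chosen with earlier results of these data known. Named genes are the 20 members of highest −log10 q, the 10 genes with most members, the 10 strongest members at gene ends, retinoid genes with a member, up to 4 genes of each other list, and RARB, CYP26A1, CYP26B1, EXOC6B, CD1D and NRIP1. Some genes that this rule names are not reported here. The groups within 20 kb, the background limit of 30 reads and the ranges of reads and gene length were set after the values were seen. Merging and distances equalled those of a separate interval tool on simulated data. Python 3.11.15, numpy 2.4.6, pandas 2.3.3, scipy 1.17.1 and matplotlib 3.10.9 were used.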

Additional observations from a re-analysis of the deposited data

Results flagged for a closer look

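Outside chromosomes 1 to 22 and X, on scaffolds that the comparisons above leave out, 54 ATRA+POM peaks had no counterpart in another list, against 29 POM, 1 ATRA and 32 DMSO peaks. The lists held 157 ATRA+POM, 153 POM, 71 ATRA and 151 DMSO peaks on these scaffolds. A single unlocalised scaffold of chromosome 22 held 10 ATRA+POM peaks, against 2 each with POM, ATRA and DMSO. These 2 numbers were marked because they are signal outside the main measurement and above the DMSO list.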

How the results depend on the processing

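The number of ATRA+POM-only regions, 3520, was 1753 with the stronger 50% of each list, 1169 with a fold enrichment of at least 10 and 2292 with peaks within 500 bp merged. Limits on strength were applied to every list before merging. A region thus also counts where a peak of another list fell below the limit. Of the 3520 members only 266 reach a fold enrichment of 10. It stayed within 1.5 times of 3520 under the other alternatives run, from 2654 to 4095. The share at a gene end was 6.62% with a window of 3000 bp and 2.15% without members within 1000 bp of a peak of another list, a setting added after seeing the data. The other settings gave 2.44 to 2.91%. The share with a peak of another list within 1000 bp was 11.9% with the stronger 50%, 17.8% with an equal number of strongest peaks and 30.1% with members within 20 kb counted once, which was also added. That last setting joined such members into 1 interval that includes the stretches between them. A peak of another list between members then counted as near, so the 30.1% is raised in part by construction. With the stronger 50% of each list 668 genes and 10 retinoid genes had an ATRA+POM-only region of that setting. With a fold enrichment of at least 10 these were 517 genes and 9 retinoid genes. Only 1 of the 24 members at retinoid loci itself reaches that fold enrichment. With a 500 bp merge 11 retinoid genes had such a region, and without members near another list's peak 11. Without peaks of a background over 30 reads, added later, the counts were 3523 regions and 19 retinoid genes, though 32 of the 3520 members drop out by construction, so the regions are not all the same. The cause of these changes was not tested.

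The planned motif search in whole regions and round the summits was not run, as no genome of the build was used here, and promoter windows were searched in its place. No paired analysis was possible because each treatment has 1 library and the results come from no test, so there is none to leave out. The lists hold no values below the calling threshold, so a region without a peak is one that was not called, and the shallow ATRA library limits what its list can show.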

Other observations

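Members made up 3.88% of the ATRA+POM peaks on chromosome 17 and 10.0% on chromosome 16, the lowest and highest shares over the 23 chromosomes. Without peaks of a background over 30 reads, chromosome 16 had 8.74%, below chromosome 5 (9.43%) and chromosome 20 (9.30%). Among 1562 miRNA hairpins in the RefSeq table, 2 were touched by a member, MIR190A (33 summit reads) and MIR140 (18 summit reads).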
